A study of Mus musculus with 10 samples.

Results

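The 9 genes described here belong to the core of the transforming growth factor beta (TGF-β) pathway, and they were measured in WEHI 164 tumors taken before an immunotherapy. They are the 3 ligands Tgfb1, Tgfb2 and Tgfb3, the 3 receptors Tgfbr1, Tgfbr2 and Tgfbr3, the latency protein gene Ltbp1, the feedback inhibitor Smad7 and the induced gene Tgfbi. The genes were chosen by symbol, all 9 were found among the 26378 named genes of the table, and all 9 were among the 14944 genes that passed a filter on low values. WEHI 164 is an established mouse fibrosarcoma cell line, and the tumors grew under the skin of female wild-type BALB/c mice whose ages the labels do not give. None of the tumors had been treated when RNA was collected, at the operation after which a hydrogel loaded with poly(I:C), a synthetic double-stranded RNA, was placed on the tumor left behind. Mice whose tumors then regressed completely were the responders (RS, tumors 5, 9, 10, 11 and 12), and mice whose tumors grew without delay were the non-responders (NR, tumors 1, 2, 3, 6 and 7). The comparison of these 5 and 5 tumors asks which genes differed before treatment according to the later outcome.

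TGF-β ligands are made as inactive precursors, held in the extracellular matrix by latent TGF-β binding proteins and released by integrins, thrombospondin or proteases. Free ligand binds the type II receptor, which recruits and phosphorylates the type I receptor, and receptor-regulated Smad proteins then carry the signal to the nucleus, where they induce matrix genes and also Smad7, which shuts the receptor down. In tumors the pathway is known for matrix deposition by fibroblasts and for restraint of T and NK cells.

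The pieces held RNA of mesenchymal tumor cells and of host cells. All 10 mesenchymal markers passed the filter, led by the intermediate filament gene Vim with a mean of 4827 CPM (counts scaled to the size of the library), whereas the epithelial adhesion gene Epcam had at most 11 estimated counts in any tumor. The keratin gene Krt8, also on the epithelial list, had a mean of 182 CPM, and Krt1 of the keratinocyte list was at 0 in every tumor. In such pieces, fewer cells of a type and less RNA per cell cannot be told apart. Responder tumor 5 stood apart from the other responders: across all genes, leaving it out raised the number with an unadjusted p under 0.05 (edgeR) from 1250 to 2095 and the number with an adjusted p under 0.05 from 0 to 10. For the 9 genes and the pathway lists, counts without it are given beside those with it. The responders other than tumor 5 were those with the highest tumor numbers, 9 to 12, so that tumor number and later outcome cannot be told apart in these 4. The labels name no batch.

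The sequences upstream of the ligand genes Tgfb1 and Tgfb2 are shown because these had the highest and the lowest level of the 3 ligands, described below. Each line gives the 250 bases before the annotated transcription start, 5′ to 3′ on the strand of the gene, from RefSeq on GRCm38.p6. The Tgfb1 stretch is chr7:25686752-25687001 on the plus strand and the Tgfb2 stretch is chr1:186705990-186706239 on the minus strand. Capitals mark the GC box in Tgfb1, spelled GGGCGG and found on both strands, and the TATA box in Tgfb2, spelled TATAAA.
Tgfb1: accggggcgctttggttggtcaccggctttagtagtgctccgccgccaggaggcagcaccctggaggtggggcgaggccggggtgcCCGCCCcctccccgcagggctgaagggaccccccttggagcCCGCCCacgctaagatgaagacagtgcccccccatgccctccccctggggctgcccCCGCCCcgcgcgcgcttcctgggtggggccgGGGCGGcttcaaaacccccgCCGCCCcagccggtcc
Tgfb2: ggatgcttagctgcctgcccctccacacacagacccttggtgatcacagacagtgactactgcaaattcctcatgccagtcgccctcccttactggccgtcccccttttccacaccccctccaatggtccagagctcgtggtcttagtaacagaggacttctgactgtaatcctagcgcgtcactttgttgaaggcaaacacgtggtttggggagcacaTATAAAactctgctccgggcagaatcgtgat

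The Tgfb1 stretch had 75.2% G and C and 5 GC boxes, beginning 164, 123, 67, 36 and 16 bases before the start, and no TATA box. The Tgfb2 stretch had 53.6% G and C, 1 TATA box beginning 31 bases before the start, and no GC box. Among the 32851 upstream stretches of the same length in the RefSeq table, 32.7% held a GC box and 12.4% held a TATA box on either strand. The other motifs searched, on both strands, were the cAMP response element TGACGTCA (1.55% of stretches), the AP-1 site TGAGTCA (4.46%), and the Smad-binding sequences GTCTAGAC (0.167%) and AGCCAGACA (0.301%), and none of these stood in either ligand's stretch. Of the other genes in the table, Tgfbr1 held 2 GC boxes, Tgfbi held 1 GC box, Ltbp1 held 1 cAMP response element and Tgfbr2 held none of the 6 motifs. Tgfbr1 and Ltbp1 each had another listed start, and its stretch held none of the motifs. No stretch was available for Tgfb3, Tgfbr3 or Smad7. A match of letters is a description and was not tested as a binding site.

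Levels were compared between genes as CPM per kilobase of the longest coding transcript (GENCODE vM21, GRCm38), over the 10 tumors. Tgfbi, which encodes a secreted adhesion protein of the matrix, had the highest level, with 118 ± 11.8 CPM per kb (SD, n = 10). The ligand Tgfb1 followed with 57.2 ± 5.99, and Ltbp1, which encodes a protein that tethers the latent ligand, with 27.8 ± 0.967. On this length each of these genes was separated from its neighbor in all tumors. The type II receptor Tgfbr2 had 22.1 ± 2.36 CPM per kb and the ligand Tgfb3 had 15.1 ± 2.68, and their ranges over tumors overlapped (18.1 to 25.4 and 11.4 to 19.5). The type I receptor Tgfbr1 (9.34 ± 0.882), the co-receptor Tgfbr3 (8.23 ± 0.494) and Smad7 (7.52 ± 0.893) had overlapping ranges, and Tgfb2 was lowest in every tumor with 0.831 ± 0.269. The place of Tgfbr1 and Smad7 depended on the transcript length used, since division by the median length of the coding transcripts in place of the longest gave 22.9 and 17.1 CPM per kb. Ltbp1 and Tgfbr2 then lay close together, with means of 32.6 and 30.9 CPM per kb. On either length the 2 highest genes were Tgfbi and Tgfb1 and the lowest was Tgfb2.

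**Figure D1:**
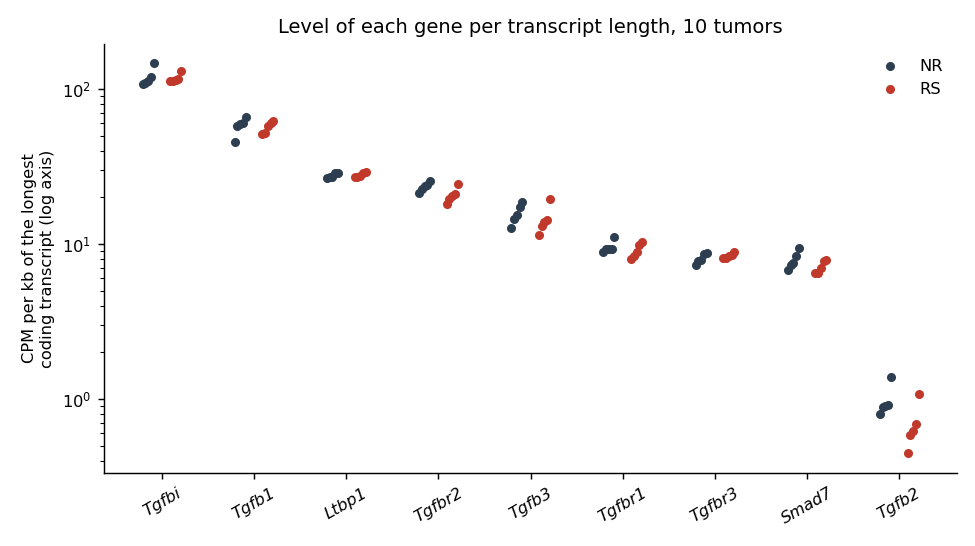
Level of each of the 9 genes in the 10 tumors, as CPM per kb of the longest coding transcript on a log axis, with non-responders (NR) and responders (RS) drawn side by side and 1 point per tumor. Tgfbi lies at the top with a mean of 118 and Tgfb2 at the bottom with a mean of 0.831.

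Of the summed per-length level of the 3 ligands, Tgfb1 made up 79.0% ± 3.43 in responders and 77.5% ± 2.75 in non-responders (SD, n = 5 each; exact two-sided permutation p = 0.444). Tgfb3 made up 20.01% ± 3.16 and 21.2% ± 2.66 (exact permutation p = 0.524). The share of Tgfb2 was 0.944% ± 0.267 in responders and 1.31% ± 0.223 in non-responders (exact permutation p = 0.0556). With 5 tumors per group this test cannot give a p below 0.00794. The ligand mixture was thus dominated by Tgfb1 in every tumor, from 74.5% to 84.0%, and none of the 3 shares passed a threshold of 0.05.

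Of the 9 genes, 0 had an adjusted p under 0.05 between responders and non-responders (edgeR quasi-likelihood test, Benjamini-Hochberg over all 14944 genes), as did 0 of all genes tested (0%). DESeq2 called 1 of all genes, the collagen VI chain Col6a2 (adjusted p = 0.0431), and 0 of the 9. At an unadjusted p under 0.05, 2 of the 9 genes, Tgfb2 and Tgfbr2, had lower means in responders and 0 had higher means. Over all genes 8.36% passed this looser threshold, 3.61% as lower and 4.75% as higher in responders. The log2 fold change was below 0 for 7 of the 9 genes, against 49.7% of all genes, with a median of -0.075 against 0.001. Leaving out 1 tumor moved this median between -0.109 (without responder 5) and -0.021 (without non-responder 3), and the number below 0 between 6 and 8. The CPM ranges of the groups did not overlap for 0 of the 9 and for 0.883% of all genes, with responders below for 0.475%. Adjusted p-values of the 9 started at 0.573, and 2 of 9 genes are too few to set against these backgrounds.

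**Figure D2:**
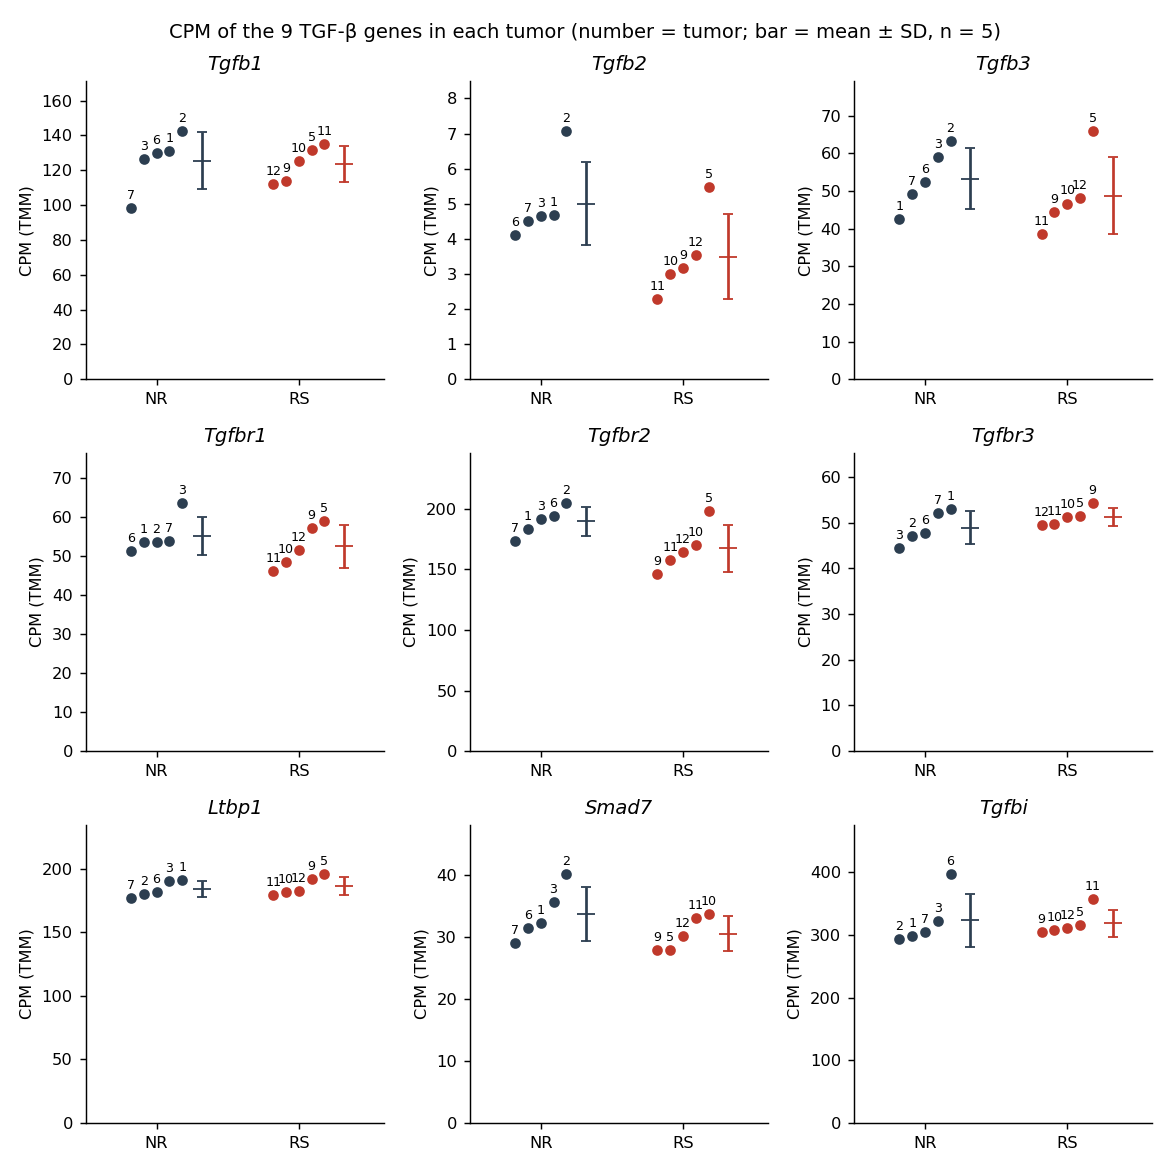
CPM of each of the 9 genes (vertical axes from 0) in non-responders (NR) and responders (RS), 1 point per tumor with its tumor number, and the group mean with its SD as a bar (n = 5). For Tgfb2 and Tgfbr2 responders 9, 10, 11 and 12 lie below every non-responder and responder 5 lies within the range of the non-responders.

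Among the ligands, the lowly expressed Tgfb2 had the largest difference of the 9 genes. Tgfb2 lies at chromosome 1, 186622792 to 186705989, on the minus strand, and encodes the TGF-β2 ligand, which needs the co-receptor for efficient binding. In non-responders Tgfb2 measured 4.68 CPM in tumor 1, 7.08 in tumor 2, 4.64 in tumor 3, 4.10 in tumor 6 and 4.52 in tumor 7. In responders it measured 5.48 CPM in tumor 5, 3.17 in tumor 9, 3.01 in tumor 10, 2.28 in tumor 11 and 3.54 in tumor 12. Responders 9 to 12 lay below every non-responder, and responder 5 lay above all non-responders except tumor 2. The means were 3.50 ± 1.2 CPM in responders and 5.0 ± 1.18 in non-responders (SD, n = 5 each), a ratio of 0.698 with a 95% confidence interval of 0.502 to 0.970. The log2 fold change of Tgfb2 was -0.52 (SE 0.22, unadjusted p = 0.0346, adjusted p = 0.573, edgeR), and the exact permutation test on its log2 values gave p = 0.0635. These values rest on 50 to 196 estimated counts per tumor. Overlapping genes of the opposite strand (Gm26169 and Gm29491) lie within Tgfb2, and whether the libraries kept the strand is not given in the sources used here.

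Tgfb1, the main ligand of these tumors, lies at chromosome 7, 25687002 to 25705077, on the plus strand. It measured 131, 143, 126, 129.7 and 98.3 CPM in non-responders 1, 2, 3, 6 and 7. In responders 5, 9, 10, 11 and 12 it measured 132, 114, 125, 135 and 112 CPM. The responders lay inside the range of the non-responders, whose highest and lowest tumors were 2 and 7. The means of Tgfb1 were 123 ± 10.4 and 126 ± 16.4 CPM, and its log2 fold change was -0.02 with a 95% confidence interval of -0.21 to 0.17 (edgeR adjusted p = 0.968).

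Tgfb3, whose product TGF-β3 is best known from palate and lung development, lies at chromosome 12, 86056745 to 86079041, on the minus strand, where Ttll5 and 2 other genes overlap it on the opposite strand. It measured 42.6, 63.4, 59.0, 52.4 and 49.3 CPM in non-responders 1, 2, 3, 6 and 7. In responders it measured 66.0 CPM in tumor 5, 44.3 in tumor 9, 46.7 in tumor 10, 38.7 in tumor 11 and 48.3 in tumor 12. Responder 5 was the highest of all 10 tumors and responder 11 the lowest, so the groups overlapped throughout. The log2 fold change of Tgfb3 was -0.13 (SE 0.13, 95% confidence interval -0.42 to 0.16, edgeR adjusted p = 0.828).

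Tgfbr2, the type II receptor that binds the ligand first, lies at chromosome 9, 116084293 to 116175360, on the minus strand. In non-responders Tgfbr2 measured 184 CPM in tumor 1, 205 in tumor 2, 192 in tumor 3, 194 in tumor 6 and 174 in tumor 7. In responders it measured 198 CPM in tumor 5, 146 in tumor 9, 170.3 in tumor 10, 158 in tumor 11 and 165 in tumor 12. The split of the tumors was the one seen for Tgfb2, with responders 9 to 12 below every non-responder and responder 5 below non-responder 2 alone. Means were 167 ± 19.2 CPM in responders and 189.8 ± 11.8 in non-responders, a ratio of 0.883 with a 95% confidence interval of 0.791 to 0.985. The log2 fold change of Tgfbr2 was -0.18 (SE 0.07, unadjusted p = 0.0284, adjusted p = 0.573, edgeR; exact permutation p = 0.0635).

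The other receptors varied less between the groups. Tgfbr1, the type I receptor kinase (chromosome 4, 47353222 to 47414931, plus strand), ranged from 46.2 to 58.9 CPM with a median of 51.5 in responders, and the non-responders from 51.3 to 63.6 with a median of 53.6. Responders 10 and 11 were the lowest of the 10 tumors and non-responder 3 was the highest. The log2 fold change of Tgfbr1 was -0.07 (SE 0.08, edgeR adjusted p = 0.823), and leaving out 1 tumor gave -0.122 (without responder 5) to -0.019 (without non-responder 3). Tgfbr3, the co-receptor betaglycan (chromosome 5, 107106570 to 107289629, minus strand), ranged from 49.4 to 54.4 CPM in responders and 44.4 to 52.9 in non-responders. It had the largest of the positive differences, with a log2 fold change of 0.07 (SE 0.06, 95% confidence interval -0.05 to 0.19, edgeR adjusted p = 0.773), and its groups overlapped.

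Ltbp1, the latency protein gene (chromosome 17, 75005568 to 75392512, plus strand), was the steadiest of the 9 genes, with a coefficient of variation of 3.48% over the 10 tumors against 32.4% for Tgfb2. It ranged from 179.7 to 196 CPM in responders and 177 to 191 in non-responders, and its log2 fold change was 0.02 with a 95% confidence interval of -0.07 to 0.11 (edgeR adjusted p = 0.937). Non-responder 7 was the lowest and responder 5 the highest tumor.

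Smad7, the feedback inhibitor of the type I receptor (chromosome 18, 75367529 to 75395935, plus strand), measured 32.4, 40.2, 35.7, 31.5 and 29.0 CPM in non-responders 1, 2, 3, 6 and 7. In responders 5, 9, 10, 11 and 12 it measured 27.9, 27.9, 33.8, 33.1 and 30.1 CPM. Non-responders 2 and 3 were the highest tumors, responders 5 and 9 the lowest, and the remaining tumors were mixed. The log2 fold change of Smad7 was -0.14 (SE 0.09, 95% confidence interval -0.33 to 0.05, edgeR adjusted p = 0.696), and leaving out 1 tumor gave -0.192 (without non-responder 7) to -0.074 (without non-responder 2). Tgfbi (chromosome 13, 56609523 to 56639562, plus strand) measured 298, 293, 323, 397 and 305 CPM in non-responders 1, 2, 3, 6 and 7. In responders 5, 9, 10, 11 and 12 it measured 315, 305, 307, 357 and 310.3 CPM. Each group had 1 high tumor, non-responder 6 and responder 11, and the log2 fold change was -0.02 (SE 0.08, 95% confidence interval -0.19 to 0.15, edgeR unadjusted p = 0.828). Smad7 and Tgfbi, a feedback gene and a matrix gene that TGF-β is known to induce, thus gave no call in either direction.

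**Figure D3:**
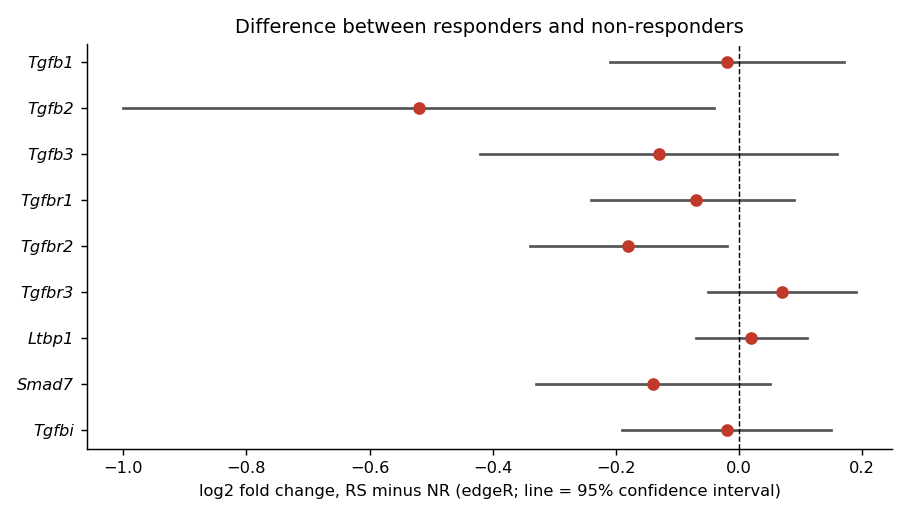
Log2 fold change of each of the 9 genes, responders minus non-responders, with its 95% confidence interval (edgeR, 5 tumors per group, not adjusted for the number of genes). The intervals of Tgfb2 (-1.0 to -0.04) and Tgfbr2 (-0.34 to -0.02) lie below 0 and the other 7 cross it.

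Without responder 5, the groups were separated for Tgfb2 and Tgfbr2, which follows from the values per tumor given above. Responder 5 was singled out because leaving it out raised the number of small p-values. The p-values without it are therefore a description. The 4 responders left had 2.28 to 3.54 CPM of Tgfb2 against 4.10 to 7.08 in the 5 non-responders, with a log2 fold change of -0.75 (SE 0.19, unadjusted p = 0.00157, adjusted p = 0.0993, edgeR). Tgfbr2 ranged from 146 to 170.3 against 174 to 205 CPM, with a log2 fold change of -0.25 (SE 0.06, unadjusted p = 0.00117, adjusted p = 0.0950, edgeR). Tgfb3 had a log2 fold change of -0.26 without this tumor (SE 0.11, unadjusted p = 0.0289, adjusted p = 0.293, edgeR) and still overlapped. In that setting 3 of the 9 genes had an unadjusted p under 0.05 as lower in responders, where 6.76% of all genes did, and 0 of the 9 had an adjusted p under 0.05, where 0.0672% of all genes did. The ranges were apart for 2 of the 9 genes, both with responders below, and for 4.79% of all genes, 2.38% with responders below. The number of the 9 genes with an unadjusted p under 0.05 also moved when 1 tumor at a time was left out. It was 0 without non-responder 2, responder 9 or responder 11, where 1113 of 14906, 841 of 14865 and 821 of 14894 genes passed. It was 1 without responder 10 or responder 12, where 1048 of 14870 and 992 of 14890 genes passed. It was 3 without responder 5 or without non-responder 7, where 2095 of 14891 and 895 of 14879 genes passed.

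The ligands were related to the induced genes, 6 relations in all, across the 10 tumors on log2(CPM + 1). Tgfb1 and Smad7 had the highest correlation, with Pearson's r = 0.612 (permutation p = 0.0603, adjusted over the 6 relations 0.362) and Spearman's rho = 0.479 (permutation p = 0.166). Without the 2 tumors farthest from the median of Tgfb1, non-responder 7 and responder 12, r was 0.624, and on deviations from the group means it was 0.654 (permutation p = 0.0368, adjusted 0.221). The other 5 relations were weaker. Tgfb1 with Tgfbi gave r = 0.22 (permutation p = 0.54) and rho = 0.0667 (permutation p = 0.866). Tgfb2 with Tgfbi gave r = -0.367 (permutation p = 0.293) and rho = -0.418 (permutation p = 0.233). The sign was negative for Tgfb2 with Tgfbi, where responder 11 combined the lowest Tgfb2 with a high Tgfbi. Tgfb2 with Smad7 gave r = 0.307 (permutation p = 0.384) and rho = 0.139 (permutation p = 0.705). Tgfb3 with Tgfbi gave r = -0.133 (permutation p = 0.736) and rho = 0.0424 (permutation p = 0.918), and Tgfb3 with Smad7 gave r = 0.214 (permutation p = 0.552) and rho = 0.0788 (permutation p = 0.837). On deviations from the group means r was 0.0539 for Tgfb2 with Smad7 and 0.102 for Tgfb3 with Smad7. With Tgfbi it was 0.218 for Tgfb1, -0.5 for Tgfb2 and -0.153 for Tgfb3. Leaving out 1 tumor moved the r of Tgfb3 with Smad7 between -0.172 (without non-responder 2) and 0.58. That of Tgfb2 with Smad7 moved between -0.233 (without non-responder 2) and 0.517, and that of Tgfb3 with Tgfbi between -0.339 (without non-responder 6) and 0.112. The range was -0.631 (without non-responder 6) to -0.164 for Tgfb2 with Tgfbi and 0.119 (without responder 11) to 0.437 for Tgfb1 with Tgfbi. Apart from the raw p of Tgfb1 with Smad7 on deviations from the group means, no p of r or rho was under 0.05, and adjusted p-values of r ran from 0.362 to 0.736. Ligand RNA and the RNA of these induced genes were therefore not shown to move together, and the RNA of a ligand does not measure its active protein.

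**Figure D4:**
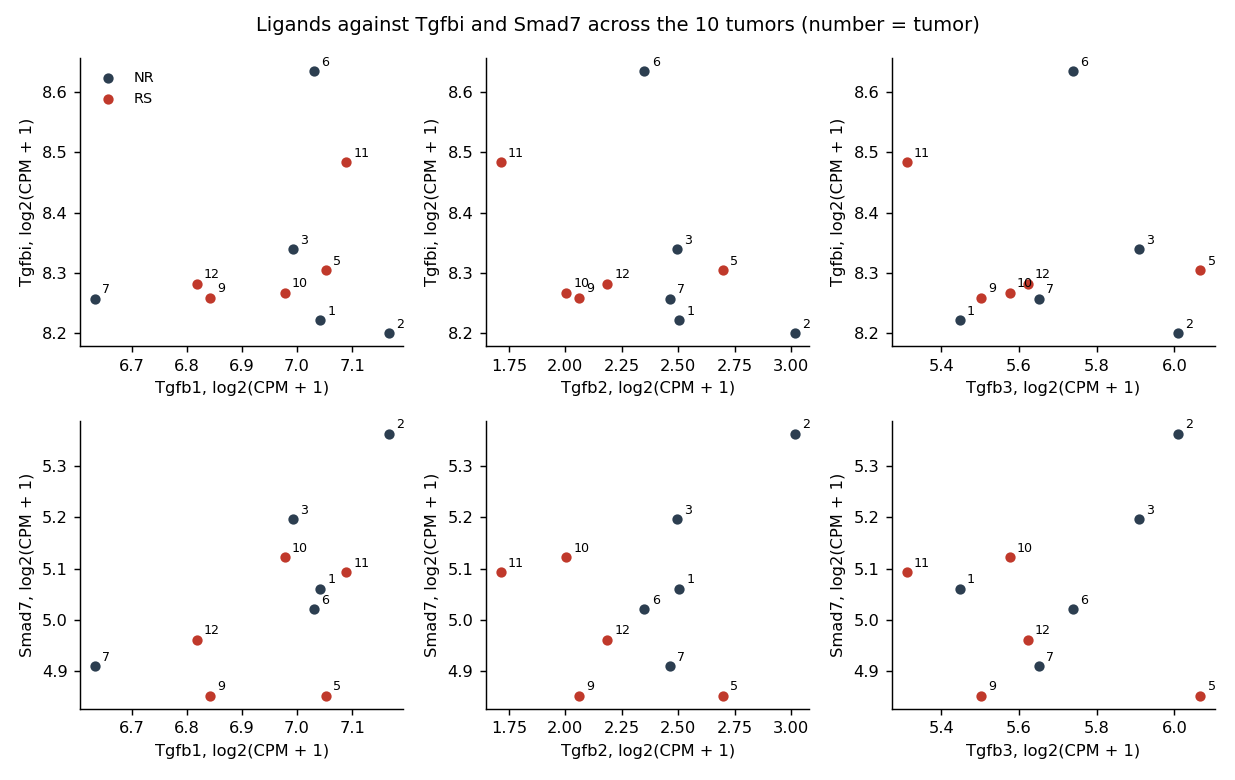
Each of the 3 ligands (horizontal axes) against Tgfbi and Smad7 (vertical axes) as log2(CPM + 1) in the 10 tumors, 1 point per tumor with its number, non-responders (NR) and responders (RS) in separate colors. The panel of Tgfb1 and Smad7 has the highest correlation (r = 0.612), and in the Tgfbi panels tumors 6 and 11 stand above the rest.

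For each of the 9 genes, the genes most like it were those with the highest Pearson's r of log2(CPM + 1) over the 10 tumors among 10989 genes with a mean of at least 5 CPM. These values are the highest of many, all points come from the same 10 libraries, and they are given as a description. Tgfb2 was most like the elastic fiber gene Fbln5 (r = 0.972), Dpysl3 (0.969) and Rin2 (0.966). Tgfbr2 was most like the transcription factor gene Nfix (r = 0.988), the actin regulator gene Wasl (0.984) and Pmepa1 (0.980), which encodes a membrane protein that TGF-β induces and that restrains Smad signaling. Pmepa1 measured 355 CPM in responder 5 against 236, 279, 277 and 274 in responders 9, 10, 11 and 12 and 288 to 356 in non-responders, the order of tumor groups seen for Tgfbr2. The likeness of Pmepa1 to Tgfbr2 was also 0.972 on deviations from the group means. Tgfb1 was most like Parvb (r = 0.965), Zyx (0.952) and Fam110a (0.944), of which Parvb and Zyx encode focal adhesion proteins. Tgfb3 was most like Armcx2 (r = 0.983), Smg6 (0.973) and Plscr4 (0.967).

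The highest values of the other 5 genes lay between 0.871 and 0.953. Ltbp1 was most like Rassf8 (r = 0.871), Mx2 (0.868) and Pigk (0.863), and Tgfbr3 was most like Nkiras1 (0.879), Slc35e3 (0.852) and Rcan1 (0.832). Tgfbr1 was most like Vps37a (r = 0.953), Supt20 (0.948) and Depdc5 (0.894), and Smad7 was most like Bag3 (0.924), Cenpb (0.904) and H2bc4 (0.903). For Tgfbi, the genes Lsm7 (r = 0.927), B4galt3 (0.913) and Elavl1 (0.910) came first, but their rank correlations were 0.721, 0.685 and 0.418, below those of Tgfb2.

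The wider pathway was described with 6 lists of 112 genes in all, of which 105 passed the filter. Of these 105 genes, 0 had an adjusted p under 0.05, 8 had an unadjusted p under 0.05 as lower and 3 as higher in responders (10.48% together, against 8.36% of all genes), and 62.86% had a log2 fold change below 0. The median over the 105 was -0.034 against 0.001 over all genes. Without responder 5 the same counts were 19 lower, against 6.76% of all genes, and 7 higher, against 7.31% (14.1% in either direction), and 1 had an adjusted p under 0.05, against 0.0672% of all genes. The CPM ranges of the groups were then apart for 7 of the 105 genes, against 4.79% of all genes.

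The list of latency and activation genes had 20 of 20 members past the filter, of which 2 were lower and 0 higher at an unadjusted p under 0.05, against 3.61% and 4.75% of all genes, with a median log2 fold change of -0.034 against 0.001. Lrrc32, which encodes GARP, a protein that displays latent TGF-β on regulatory T cells and platelets, had 7.09 ± 0.783 CPM in responders and 8.95 ± 1.18 in non-responders (log2 fold change -0.33, SE 0.11, edgeR adjusted p = 0.558). Non-responder 7 had 6.93 CPM of Lrrc32, within the responder range, and the other 4 non-responders lay above all responders. Thbs1, which encodes thrombospondin, an activator of latent TGF-β, had 117 ± 27.3 CPM in responders and 149.9 ± 26.8 in non-responders (log2 fold change -0.35, SE 0.15, edgeR adjusted p = 0.573). Itgb3, an integrin subunit that can bind the latent complex, and the membrane protease gene Mmp14 had log2 fold changes of 0.17 (SE 0.09) and -0.15 (SE 0.08), each with an edgeR adjusted p of 0.658. Without responder 5, 6 of the 20 were lower and 2 higher at an unadjusted p under 0.05, against 6.76% and 7.31% of all genes in that setting. Itgb3 then had 25.04 to 28.5 CPM in responders and 19.6 to 23.6 in non-responders, and the ranges were apart in either direction for 4.79% of all genes.

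Among the other receptors of the superfamily, 14 of 14 passed the filter and 0 had an unadjusted p under 0.05 in either direction, against 8.36% of all genes (median -0.041 against 0.001). The smallest p-values were those of Acvrl1, the type I receptor ALK1 of endothelial cells (log2 fold change 0.23, SE 0.11, edgeR adjusted p = 0.611), the co-receptor Nrp1 (-0.17, SE 0.09, edgeR adjusted p = 0.619), the activin receptor Acvr1b (0.13, SE 0.08) and the Nodal co-receptor Tdgf1 (0.54, SE 0.34). Tdgf1 had at most 21 estimated counts in any tumor. Without responder 5, 1 of the 14 was lower and 2 were higher at an unadjusted p under 0.05, against 6.76% and 7.31% of all genes in that setting. These were Nrp1 (-0.26, SE 0.06, edgeR adjusted p = 0.0970, responders wholly below, as for 2.38% of all genes), Acvrl1 (0.29, SE 0.11) and Acvr1b (0.18, SE 0.08).

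Of the Smads and their regulators, 20 of 20 passed the filter, 18 of 20 had a log2 fold change below 0 (49.7% of all genes did), and 1 was lower and 0 higher at an unadjusted p under 0.05, against 3.61% and 4.75% of all genes (median -0.044 against 0.001). The exception in p was Pmepa1, with 284 ± 43.2 CPM in responders and 328 ± 27.5 in non-responders (log2 fold change -0.21, SE 0.09, edgeR adjusted p = 0.589). Smad3, the receptor-regulated Smad of TGF-β and activin, had 65.5 CPM in responders and 72.2 in non-responders (log2 fold change -0.14, SE 0.07, edgeR adjusted p = 0.626). The differences of Tgif2, a corepressor (-0.08, SE 0.05), and Smurf1, a ubiquitin ligase for Smads and receptors (0.09, SE 0.05), were smaller. Without responder 5, 4 of the 20 were lower and 0 higher at an unadjusted p under 0.05, against 6.76% and 7.31% of all genes in that setting. These were Pmepa1 (-0.30, SE 0.07, edgeR adjusted p = 0.0945), Smad3 (-0.19, SE 0.07), Smad5 (-0.13, SE 0.05) and Ski (-0.15, SE 0.06), and responders lay wholly below non-responders for Pmepa1 and Smad3, as for 2.38% of all genes.

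Of 39 genes that TGF-β is known to induce, 38 passed the filter, and 6 were lower and 1 higher in responders at an unadjusted p under 0.05, against 3.61% and 4.75% of all genes, with a median of -0.031 against 0.001. The matrix gene Postn had 123 ± 7.33 CPM in responders and 156 ± 28.3 in non-responders (log2 fold change -0.34, SE 0.10, edgeR adjusted p = 0.555). Responders ranged from 110.2 to 128 CPM of Postn and non-responders from 127 to 191, so the ranges touched at non-responder 3. The collagen I chain Col1a1 had 935 ± 90.6 and 1128 ± 133 CPM (log2 fold change -0.27, SE 0.08, edgeR adjusted p = 0.555). The basement membrane chain Col4a1 measured 298 CPM in responder 5 and 174 to 232 in responders 9 to 12, against 254 to 329 in non-responders (log2 fold change -0.37, edgeR adjusted p = 0.555). Snai1, a transcription factor of mesenchymal transition, had 30.97 and 36.3 CPM (log2 fold change -0.23, SE 0.08, edgeR adjusted p = 0.555). For Col4a1, as for Tgfb2 and Tgfbr2, responder 5 lay within the non-responder range and responders 9 to 12 lay below it. The same held for Pmepa1, also on this list, and for the collagen chain Col3a1. Col3a1 measured 2424 CPM in responder 5, 1935 to 2128 in responders 9 to 12 and 2154 to 2665 in non-responders. Without responder 5, responders lay wholly below for 2.38% of all genes. Without responder 5, 7 of the 38 were lower and 2 higher at an unadjusted p under 0.05, against 6.76% and 7.31% of all genes in that setting. Col4a1 then had a log2 fold change of -0.50 (SE 0.10, edgeR adjusted p = 0.0647). The median of the 38 lay between -0.063 (without non-responder 7) and 0.006 (without non-responder 2) when 1 tumor was left out.

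**Figure D5:**
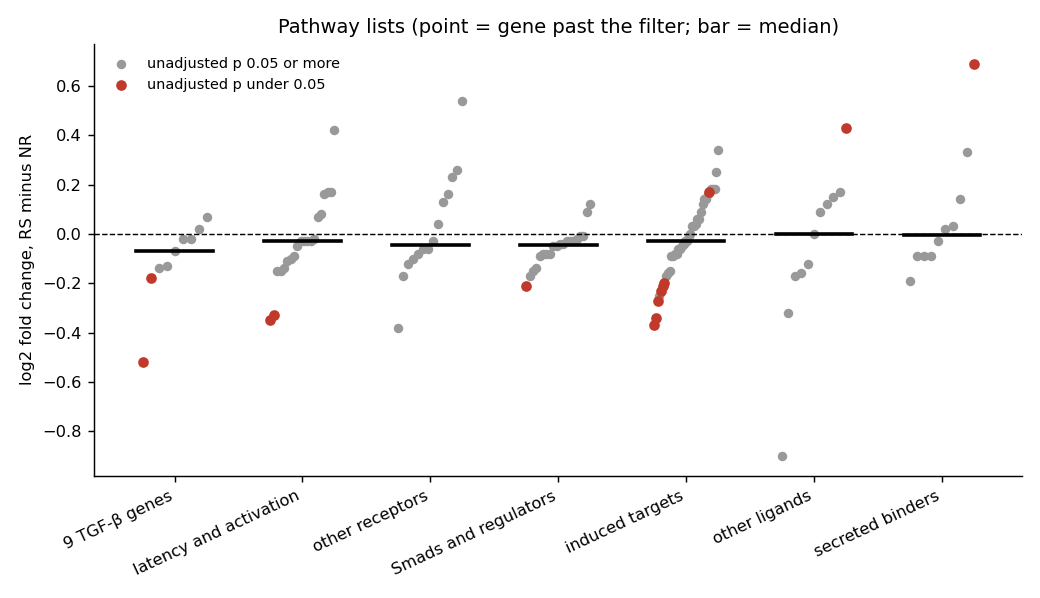
Log2 fold change, responders minus non-responders, of the 9 genes and of the genes of 6 pathway lists that passed the filter, 1 point per gene, with the list's median as a bar and genes with an unadjusted p under 0.05 in red (edgeR). The medians lie between -0.075 and 0.004, and Gdf3 (-0.90) and Fst (0.69) are the most distant points.

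Of the other ligands of the superfamily, 11 of 15 passed the filter (Bmp6, Gdf10, Mstn and Nodal did not), with 0 lower and 1 higher in responders at an unadjusted p under 0.05, against 3.61% and 4.75% of all genes, and a median of 0.004 against 0.001. The higher gene was Bmp2, a bone morphogenetic protein, with 5.18 CPM in responders and 3.85 in non-responders (log2 fold change 0.43, SE 0.19, edgeR adjusted p = 0.579). Gdf3 measured 2.92 CPM in responder 5, 0.331 to 0.779 in responders 9 to 12 and 1.70 to 2.19 in non-responders (log2 fold change -0.90, SE 0.43, edgeR adjusted p = 0.611). Without responder 5, Gdf3 was the 1 pathway gene called, with a log2 fold change of -1.74 (SE 0.24, edgeR adjusted p = 0.0330), at a level of few counts. Gdf3 is 1 of the 10 genes whose calls singled out responder 5, so this p-value is a description. Of the 11 ligands 2 were then lower and 0 higher at an unadjusted p under 0.05, against 6.76% and 7.31% of all genes in that setting. With all tumors, Gdf11 and Lefty1 had log2 fold changes of -0.12 (SE 0.08) and -0.17 (SE 0.12).

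Of the secreted binders of these ligands, 10 of 12 passed the filter (Fmod and Nog did not), with 0 lower and 1 higher at an unadjusted p under 0.05, against 3.61% and 4.75% of all genes, and a median of -0.008 against 0.001. Fst, which encodes follistatin, a binder of activins, measured 41.8, 21.9, 48.1, 28.9 and 18.6 CPM in non-responders 1, 2, 3, 6 and 7. In responders 5, 9, 10, 11 and 12 it measured 48.8, 51.8, 46.3, 64.8 and 43.7 CPM. Responders were close together and non-responders 1 and 3 reached or neared them, and the log2 fold change of Fst was 0.69 (SE 0.22, edgeR adjusted p = 0.555). The proteoglycan gene Dcn had a log2 fold change of 0.33 (SE 0.21, edgeR adjusted p = 0.705), and those of Aspn and Fstl3 were -0.19 (SE 0.17) and -0.09 (SE 0.08). Without responder 5, 0 of the 10 were lower and 1, Fst (0.71, SE 0.24), was higher at an unadjusted p under 0.05, against 6.76% and 7.31% of all genes in that setting.

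Markers of cell types that make or answer TGF-β were summed per tumor, and the counts of marker genes past an unadjusted p of 0.05 stand against 3.61% of all genes lower and 4.75% higher in responders. Endothelial markers summed to 163 ± 8.64 CPM in responders and 178 ± 13.8 in non-responders, with 3 of 6 genes (Cdh5, Tie1 and Kdr) lower at an unadjusted p under 0.05 (edgeR). Pecam1, the most abundant at 71.4 CPM, went the other way, with a log2 fold change of 0.10 (SE 0.07). It was the 1 gene of the 6 above 0. Mesenchymal markers summed to 7673 ± 495 and 7704 ± 579 CPM, with 1 of 10 lower (Col1a1). Macrophage markers summed to 1605 ± 200.02 and 1436 ± 180 CPM, led by C1qa at 354, with 0 of 8 past that threshold. The ranges of all these sums overlapped between the groups. The T and NK cell markers were led by Cd4 at 7.81 CPM. They summed to 14.3 CPM in responder 5, 32.4 to 51.6 in responders 9 to 12 and 14.1 to 34.6 in non-responders. The 2 of 6 higher at an unadjusted p under 0.05 (edgeR) were Nkg7 (log2 fold change 1.07, SE 0.35) and Ncr1 (0.88, SE 0.35). The T cell genes Cd4 (0.62, SE 0.31), Cd3e (0.34, SE 0.28), Cd3d (0.15, SE 0.26) and Cd8a (0.14, SE 0.26) did not pass. Regulatory T cell markers were led by Il2ra at 12.5 CPM. They summed to 20.4 CPM in responder 5, 35.0 to 39.6 in responders 9 to 12 and 21.0 to 30.3 in non-responders. The 2 of 4 higher were Il2ra (log2 fold change 0.83, SE 0.26) and Tnfrsf18 (0.62, SE 0.26), and Ctla4 was below the filter. Foxp3 (0.29, SE 0.17) and Ikzf2 (0.24, SE 0.14) did not pass. Foxp3 had 4.21 CPM in responders and 3.42 in non-responders, with overlapping ranges. Responder 5 thus lay at the low end of the non-responders for the T and NK cell sum and below them for the regulatory T cell sum, and it lay within their range for Tgfb2 and Tgfbr2. Responders 9 to 12 lay above all non-responders for the regulatory T cell sum and, apart from responder 12 against non-responder 1, for the T and NK cell sum.

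The sums of the other lists overlapped between the groups. Platelet markers were led by Pf4 at 31.9 CPM. They summed to 27.4 CPM in responder 5, 47.6 to 67.9 in responders 9 to 12 and 23.8 to 53.8 in non-responders. Pf4 made up most of the sum, with 41.2 of 51.1 CPM in responders and 22.6 of 33.6 in non-responders. At an unadjusted p under 0.05 (edgeR), 1 of 4 was higher (Pf4, log2 fold change 0.86, SE 0.31) and 1 of 4 lower (Gp1bb, -0.72, SE 0.27). Ppbp (0.90, SE 0.65) and Itga2b (0.02, SE 0.12) did not pass, and Gp9 was below the filter. Among responders, tumor 5 had the lowest platelet sum. Pericyte markers, led by Des at 60.9 CPM, summed to 114 ± 27.1 and 105 ± 17.0 CPM in responders and non-responders, with 0 of 5 past the threshold. Skeletal muscle markers, led by Acta1 at 58.1 CPM, summed to 115 ± 49.6 and 153 ± 42.1 CPM, with 1 of 6 lower. Adipocyte markers, led by Fabp4 at 21.7 CPM, summed to 26.2 ± 7.71 and 30.1 ± 12.2 CPM, with 1 of 5 lower. Epithelial and keratinocyte markers summed to 196 ± 23.8 and 3.35 ± 0.522 CPM in responders and to 208 ± 32.4 and 3.38 ± 0.526 in non-responders. Without responder 5 more marker genes passed an unadjusted p under 0.05, where 6.76% of all genes were lower and 7.31% higher. Higher in responders were then 4 of 6 T and NK cell markers, 3 of 4 regulatory T cell markers and 2 of 8 macrophage markers. Of the endothelial markers 3 of 6 were lower and 1 higher, of the mesenchymal markers 2 of 10 lower and 1 higher, of the skeletal muscle markers 2 of 6 lower, and of the pericyte markers 1 of 5 lower. The counts of the other marker lists did not change. The part of these cell types in the values of the 9 genes was not tested.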

How the data were processed

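RNA from 10 WEHI 164 tumors was sequenced after poly(A) selection. The authors pseudoaligned the reads with Kallisto to the mm10 (GRCm38) transcriptome, summed transcripts to genes with tximport, and deposited estimated counts per gene, not normalized for depth or length. The annotation release is not given in the sources used here. The named genes summed to 15778514 to 30785470 estimated counts in responders and 19606254 to 27908507 in non-responders.

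Of the 36009 rows, 9580 without a gene name (1.2% to 1.49% of counts per tumor) were left out, and rows of 44 repeated names were summed. Counts were rounded to whole numbers, and genes above 0.37 CPM in at least 3 tumors were kept. Groups were compared with edgeR 4.0.16 (TMM, quasi-likelihood test, Benjamini-Hochberg over all genes kept, threshold 0.05) in R 4.3.3. DESeq2 1.42.0, limma 3.58.1, other filters, size factors and pseudocounts, and leaving out each tumor were alternatives. The common dispersion corresponds to a coefficient of variation of 10.1% between tumors. CPM are TMM-normalized. Per-tumor tests used log2(CPM + 1), with exact permutation over 252 assignments of the labels or, for correlations, 100000 resamples. The steps were tested on simulated data.

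Besides the 9 genes, the text names the 4 genes of each pathway list with the smallest p, the 3 genes most like each of the 9, and each marker list's most abundant gene. Other genes are named because they passed a threshold, fell below the filter, stood out or share a marker list with such genes. They were chosen after their values were seen. The members and lists were chosen with earlier results of these data known. The tumors are separate mice per the labels. Coordinates are from GENCODE vM21 on GRCm38 and sequences from RefSeq on GRCm38.p6. Genes with close paralogs or overlapping neighbors may share reads.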

Additional observations from a re-analysis of the deposited data

Results flagged for a closer look

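In groups of 5 tumors, 7 values stood apart from the other 4 of their group, with a gap of more than 0.71 of the group's range on log2(CPM + 1). They come from 66 groups (33 genes in each outcome group), of which chance alone gives about 3.3, or 1 in 20. Tgfb2 was high in non-responder 2 (3.01, the others 2.35 to 2.50), Tgfbr1 was high in non-responder 3 (6.01, the others 5.71 to 5.78), and Tgfbi was high in responder 11 (8.48, the others 8.26 to 8.30). Gdf3 was high in responder 5 (1.97, the others 0.41 to 0.83) and low in non-responder 7 (1.43, the others 1.63 to 1.67). Lrrc32 was low in non-responder 7 (2.99, the others 3.30 to 3.43), and Postn was low in responder 10 (6.80, the others 6.97 to 7.02).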

How the results depend on the processing

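Tgfb2 rests on 50 to 196 estimated counts per tumor, and p-values cover the spread between tumors of 1 cell line. No paired analysis was possible because no tumor number occurs in both groups. No alternative gave any of the 9 genes an adjusted p under 0.05: edgeR with other size factors or library size alone, DESeq2, limma-voom, 2 other filters, rows without a name kept (chosen after seeing the data) or leaving out each tumor. For Tgfb2 the adjusted p ran from 0.0993 to 0.861 and the log2 fold change, leaving out 1 tumor, from -0.751 to -0.359. For Tgfbr2 the ranges were 0.0950 to 0.861 and -0.248 to -0.136. The same log2 fold change range was -0.263 (without responder 5) to -0.056 (without responder 11) for Tgfb3 and 0.035 (without non-responder 3) to 0.093 (without non-responder 1) for Tgfbr3. The direction reversed for Tgfb1 without non-responder 2 (0.024), responder 9 (0.005) or responder 12 (0.007), over a range of -0.100 to 0.024. It reversed for Ltbp1 without responder 5 (-0.000 to 0.030) and for Tgfbi without non-responder 6 (0.063, over -0.065 to 0.063). Without the 2 farthest tumors r became 0.078 for Tgfb2 with Tgfbi, -0.078 for Tgfb2 with Smad7 and 0.117 for Tgfb3 with Tgfbi. The sign of these relations thus changed, and none of them had a p under 0.05 with all tumors. For Tgfb1 with Tgfbi r was then 0.065.

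Leaving out 1 tumor, the 9 genes had 0 to 3 unadjusted p-values under 0.05. All genes had 821 (without responder 11) to 2095 (without responder 5) unadjusted and 0 to 10 adjusted, the 10 without responder 5, and DESeq2 called 1. Pathway genes had 7 (without responder 9) to 26 (without responder 5) unadjusted, with 17 without non-responder 1, and 0 to 1 adjusted. Over all genes the unadjusted counts in these 3 settings were 841 of 14865, 2095 of 14891 and 1505 of 14879. The median of the other ligands was -0.116 under the stricter filter, and leaving out 1 tumor gave -0.128 (without responder 5) to 0.079 (without responder 12). For the secreted binders that range was -0.062 to 0.022, and for the other receptors -0.061 to -0.007. With rows without a name kept, 663 features were higher and 631 lower at an unadjusted p under 0.05, against 710 and 540. The excess of higher genes turned round without non-responder 2 (548 higher, 565 lower) and without non-responder 7 (438 higher, 457 lower). Without responder 11 the split was nearly level (411 higher, 410 lower). The median log2 fold change over all genes stayed between -0.0061 and 0.0031 under these alternatives. The causes were not tested.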
